A study of Mus musculus with 2 samples.

Results

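Broad open sites were stretches of gastrocnemius chromatin over which DNase I cut along 400 bases or more without a break in the called peak. They were chosen by width: a peak of the strict list at least 400 bases wide that overlapped, by at least 1 base, a strict peak at least 400 bases wide in the other library. The rule found 834 of 82498 strict peaks in replicate 1 and 857 of 88198 in replicate 2, which is 1.01% and 0.972% of peaks. Merged over the libraries these were 796 sites of 103684 strict regions. Peaks of a deposited list can overlap each other: 30.1% and 36.5% of the members overlapped another strict peak of their own library, against 1.32% and 2.42% of all strict peaks. The 583 members of replicate 1 and 544 of replicate 2 without such an overlap gave like values for the main measures. The gastrocnemius is a limb muscle of the calf. Both libraries came from whole tissue of male B6CASTF1/J mice aged 14 days, the first generation of a cross of 2 inbred strains, with no treatment named. The labels of both libraries mention 3 males and give the same donor entry, so whether the replicates are separate animals is not known, and their spread may be technical. There was 1 group of 2 libraries, so no test between conditions was possible, and each value is given for replicate 1 and then replicate 2.

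DNase I cuts DNA where nucleosomes have been displaced, so a peak of cutting marks a promoter, an enhancer or another regulatory element. A protein bound to such an element shields a few bases from the enzyme, and the shielded stretch is called a footprint. Many mammalian promoters lie in CpG islands, stretches rich in the CpG dinucleotide that tend to be open in most tissues, whereas elements far from genes are mostly poor in CpG and more often open in 1 cell type. In whole muscle the signal is a mixture of muscle fibre nuclei, satellite cells, fibroblasts and vascular cells, and the number of open nuclei and the openness of each cannot be told apart.

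A few stretches show what these sites look like at the level of the DNA. Each is 240 bases of the mm10 reference, read on the plus strand from the RefSeq sequence of GRCm38.p6, and lies outside annotated exons; capitals mark bases that lay in a footprint in both libraries. The reference does not show the alleles of the crossed mice. The examples were picked from the named sites after their values were seen. The first pair are promoters with strong cutting and many footprints, at Add3 (adducin 3, a protein of the membrane skeleton) on chr19:53142337-53142576 and at Wipi1 (an autophagy protein) on chr11:109611574-109611813.
Add3: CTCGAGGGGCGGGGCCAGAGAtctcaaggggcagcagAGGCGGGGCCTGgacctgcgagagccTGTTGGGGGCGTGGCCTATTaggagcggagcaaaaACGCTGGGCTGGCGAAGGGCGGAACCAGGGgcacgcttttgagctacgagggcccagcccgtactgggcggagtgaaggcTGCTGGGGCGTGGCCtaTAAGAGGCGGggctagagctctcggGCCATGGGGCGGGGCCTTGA
Wipi1: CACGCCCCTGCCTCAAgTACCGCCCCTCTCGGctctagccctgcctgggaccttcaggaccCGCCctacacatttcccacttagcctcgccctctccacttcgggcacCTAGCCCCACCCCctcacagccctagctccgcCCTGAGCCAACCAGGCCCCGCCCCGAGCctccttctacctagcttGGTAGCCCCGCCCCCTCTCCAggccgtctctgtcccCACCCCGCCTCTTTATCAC
In the Add3 stretch 128 of 240 bases lay in shared footprints. It held 4 matches, on either strand, to the GC box GGGCGG, a motif of the Sp and KLF factors, and 3 of them were wholly inside shared footprints. The Wipi1 stretch held 116 such bases and 5 GC box matches, of which 3 were wholly inside. The next pair are promoters of genes with a part in muscle fibres or their daily rhythm: Pkm (pyruvate kinase, the last enzyme of glycolysis) on chr9:59656128-59656367 and Per1 (a repressor of the circadian clock) on chr11:69094791-69095030.
Pkm: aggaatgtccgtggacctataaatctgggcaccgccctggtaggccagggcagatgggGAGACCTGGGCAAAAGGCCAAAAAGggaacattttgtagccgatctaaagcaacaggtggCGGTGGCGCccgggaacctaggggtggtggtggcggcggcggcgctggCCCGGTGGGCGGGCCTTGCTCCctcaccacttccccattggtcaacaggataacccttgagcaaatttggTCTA
Per1: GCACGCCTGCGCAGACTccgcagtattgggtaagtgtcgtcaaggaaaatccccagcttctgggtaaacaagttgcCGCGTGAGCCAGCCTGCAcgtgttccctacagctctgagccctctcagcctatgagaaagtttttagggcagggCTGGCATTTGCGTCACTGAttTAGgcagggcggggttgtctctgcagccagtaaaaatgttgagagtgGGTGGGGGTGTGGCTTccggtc
Shared footprints covered 60 bases at Pkm and 73 at Per1. The Pkm stretch had 2 GC boxes, 1 of them inside a footprint. At Per1 the only GC box lay outside. The stretch at the promoter of Meis1 (a homeobox factor of the limb) on chr11:19019771-19020010 shows the opposite state, open but without a shared footprint.
Meis1: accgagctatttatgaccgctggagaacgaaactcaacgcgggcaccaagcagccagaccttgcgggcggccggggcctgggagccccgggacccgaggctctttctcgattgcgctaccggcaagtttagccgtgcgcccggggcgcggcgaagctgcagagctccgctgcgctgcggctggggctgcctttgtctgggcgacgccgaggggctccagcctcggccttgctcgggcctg
It held 27 CpG sites and 1 GC box, and no base of it lay in a footprint of either library. The remaining 3 stretches are from sites away from starts. They lie 18330 bases from Fos (an AP-1 subunit) on chr12:85455297-85455536, 22571 bases from Adarb1 (an RNA-editing enzyme) on chr10:77441323-77441562, and 72958 bases from Tln2 (talin 2, which links integrins to actin) on chr9:67633021-67633260; the distances are those of the whole sites.
Fos, distal: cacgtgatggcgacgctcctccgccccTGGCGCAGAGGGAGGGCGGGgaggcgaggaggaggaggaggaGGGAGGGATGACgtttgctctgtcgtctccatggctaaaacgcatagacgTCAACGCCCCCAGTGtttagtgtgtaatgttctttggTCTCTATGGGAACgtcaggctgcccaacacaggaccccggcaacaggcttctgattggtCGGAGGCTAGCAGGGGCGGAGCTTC
Adarb1, distal: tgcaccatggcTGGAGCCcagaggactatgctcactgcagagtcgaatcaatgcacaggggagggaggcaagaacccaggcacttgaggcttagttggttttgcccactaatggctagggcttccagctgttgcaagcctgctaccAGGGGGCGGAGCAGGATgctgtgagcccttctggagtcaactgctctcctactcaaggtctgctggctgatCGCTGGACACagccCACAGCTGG
Tln2, distal: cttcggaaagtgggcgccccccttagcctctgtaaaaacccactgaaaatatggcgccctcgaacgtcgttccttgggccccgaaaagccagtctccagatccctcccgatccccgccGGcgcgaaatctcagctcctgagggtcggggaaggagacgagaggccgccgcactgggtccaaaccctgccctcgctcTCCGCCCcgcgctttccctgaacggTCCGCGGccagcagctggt
The Fos stretch had 85 bases in shared footprints and 2 of its 3 GC boxes wholly inside. At Adarb1, with 3 CpG sites, 1 of 2 matches to the E-box CAGCTG, the site of myogenic bHLH factors among others, and the single GC box were wholly inside footprints. The Tln2 stretch carried 23 CpG sites although it is far from any coding start, and had 16 bases in shared footprints, with its GC box inside.

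Width, the measure that chose the sites, varied from 400 bases to 1000 in replicate 1 and 1440 in replicate 2. The median was 460 and 500 bases, against 180 bases over all strict peaks of each library. Widths were mostly whole multiples of 20 bases (90.2% and 87.6% of these peaks), so they are known only to about that step. Replicate 2 had more peaks of at least 400 bases than replicate 1 (3683 against 1838), and so 45.4% of the wide peaks of replicate 1 but 23.3% of those of replicate 2 were members. Of the 1004 wide peaks of replicate 1 that were not members, 600 overlapped a single narrower peak of replicate 2, 167 overlapped several and 237 overlapped none. For replicate 2 these numbers were 1918, 687 and 221 of 2826. At 712 of 796 sites each library had a single member peak. Over the 796 sites Spearman's rho of the widths in the libraries was 0.30, a description over sites of the same 2 libraries. Both widths were cut at 400 bases by the rule, so this value does not show how well width repeats. Replicate 2 was wider at 471 sites, replicate 1 at 249, and 76 were equal. The deposited signal, which the rule did not cut, had a rho of 0.90, and 778 sites lay within 2-fold of the median ratio of 1.63. The values of rho for width and signal are therefore not set against each other. Members just inside the limit, from 400 to under 420 bases, had a median signal of 1.87 and 1.14 (126 and 85 peaks). Strict peaks just outside it, from 380 to under 400 bases, had 1.66 and 1.04 (474 and 744 peaks).

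**Figure D1:**
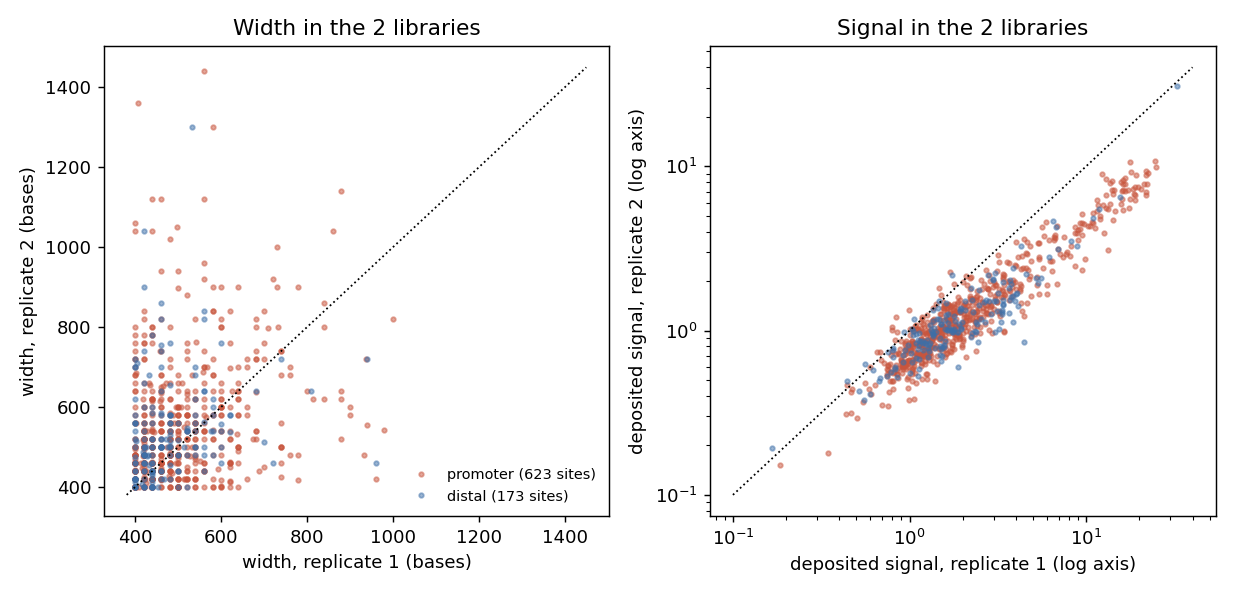
Each point is a broad site, 623 promoter and 173 distal, with its width in bases (left, linear axes) and its deposited signal (right, log axes) in replicate 1 (horizontal) and replicate 2 (vertical); dotted lines mark equality. Both widths were cut at the minimum width by the rule, so their rho of 0.30 does not show how well width repeats. Signals lie along a band below the line (median ratio 1.63).

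Most broad sites lay at promoters. Of the member peaks, 78.2% and 78.1% were within 1 kb of an annotated transcript start (652 and 669 peaks; mean 78.1% ± 0.0809, SD, n = 2). The rule makes the members of both libraries overlap, so this SD is small by selection. Among all wide peaks of 1 library the share was 70.67% (replicate 1) and 66.25% (replicate 2). Over all strict peaks the share was 32.7% and 30.4%. Strict peaks from 380 to under 400 bases wide had 59.9% and 60.6%, so a high promoter share was not particular to members. A further 7.07% and 7.35% of members were in introns, 4.08% and 3.85% in exons, and 10.7% in each library between genes. As merged sites these were 623 promoter, 55 intronic, 32 exonic and 86 intergenic sites, none on the Y chromosome. A start of a protein-coding gene was within 1 kb of 583 sites, and 40 promoter sites had only a start of another gene class nearby.

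Promoter sites that did not cover the start were more often downstream of it than is usual for strict peaks. A coding start lay inside 324 sites, while 212 sites lay wholly downstream of the nearest coding start, and 47 lay upstream. Among member peaks near a coding start, 46.9% and 50.6% had it inside, close to the 48.3% and 48.8% of all strict peaks near one. Of these members 41.3% and 39.8% were downstream, against 32.4% and 31.2% of all such peaks. Upstream lay 72 of 610 and 60 of 623 such members, against 4551 of 23638 and 4667 of 23337 of all such peaks. The downstream sites were a median of 308.5 bases from the start. Sites with starts on both strands were not more common among broad peaks (6.23% and 5.62%) than among all strict peaks near a coding start (8.39% and 7.96%). At the 308 sites with starts on 1 strand inside, the opening reached a median of 243.5 bases upstream and 343.5 bases downstream of the start.

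The position went with the kind of opening. Peaks that covered a start had a median signal percentile within their library of 71.4 and 68.9 and 1.26 and 1.40 footprints per 100 bases. Downstream peaks had a median percentile of 53.8 and 53.1 and 0.445 and 0.544 footprints per 100 bases. No footprint was called in 43.7% and 29.4% of the downstream members, against 7.69% and 4.76% of members over a start; for all strict peaks the values were 36.8% and 35.0% downstream and 3.31% and 2.62% over a start, so downstream members were above all peaks in replicate 1 and below them in replicate 2. The differences between these position classes were larger than those between the libraries, whose members overlap by rule. All strict peaks downstream of a start also had few footprints (0.782 and 0.858 per 100 bases) and a like percentile (51.1 and 46.6). Over starts, in contrast, broad peaks were weaker than the usual peak: all strict peaks there had a median percentile of 88.9 and 87.6.

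**Figure D2:**
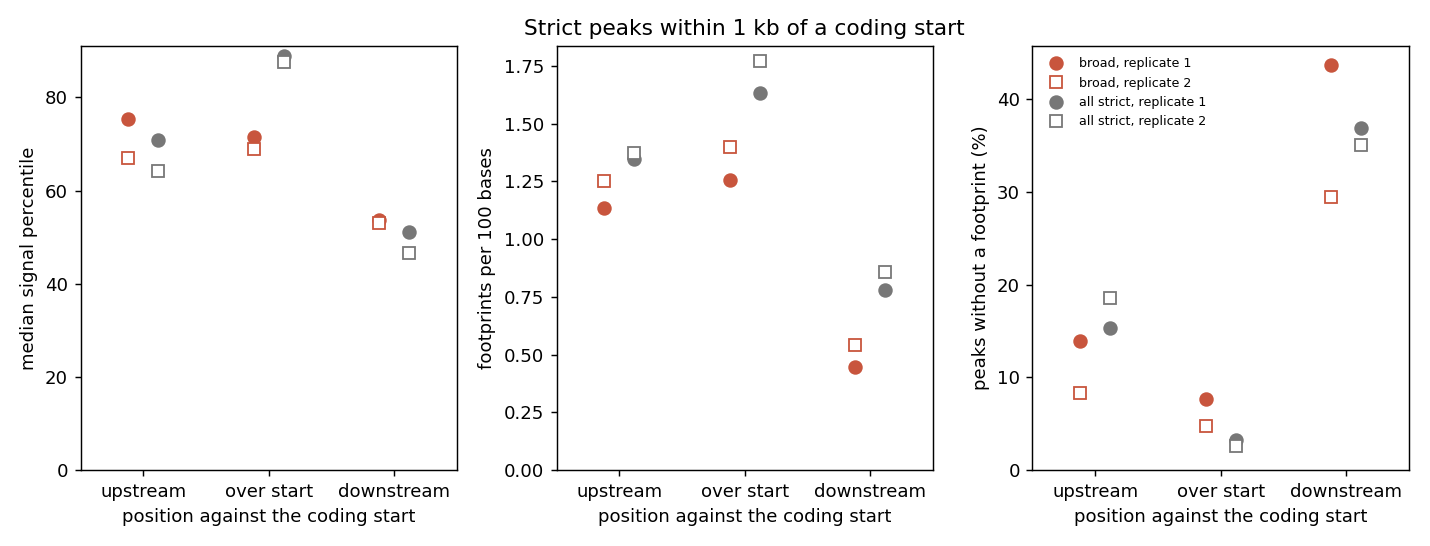
Median signal percentile, footprints per 100 bases and percentage of peaks without a footprint for strict peaks within 1 kb of a coding start, by position against the start; red marks broad peaks, grey all strict peaks, filled circles replicate 1 and open squares replicate 2. Broad peaks over a start sit near percentile 70 (71.4 and 68.9) against 88.9 and 87.6 for all, and the downstream class has the fewest footprints in both groups.

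Broad sites were also seldom alone. Leaving aside peaks that overlapped them, another strict peak lay within 200 bases of 41.2% and 42.9% of members, against 16.8% and 15.3% of all strict peaks. These shares were not split by class. Within 1 kb there was one for 77.5% and 76.8%, against 40.5% and 37.9%. Among promoter peaks alone this gap was smaller, 82.2% and 81.8% of members against 68.1% and 66.0% of all. Among distal peaks a neighbour within 1 kb was found for 60.44% and 59.04% of members, against 27.16% and 25.69% of all. At 53.5% and 50.9% of members the strongest such neighbour had a higher signal than the broad peak itself, against 23.5% and 21.8% of all strict peaks. The share was 90.9% and 89.1% for members downstream of a start, against 76.0% and 74.2% of all strict peaks there. For members that covered the start it was 33.6% and 33.0%, against 16.0% and 15.2%. Distal members had a stronger neighbour in 32.4% and 28.7% of cases, against 15.5% and 14.4% of all distal peaks. All these shares also count peaks without a neighbour, so they carry the difference in having one. Among peaks with a neighbour it was stronger at 446 of 646 and 436 of 658 members, against 19380 of 33442 and 19196 of 33447 of all. For distal peaks the counts were 59 of 110 and 54 of 111 members, against 8589 of 15086 and 8826 of 15772. By these counts distal members were not above all distal peaks.

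Broad sites were of middling signal. The members' median signal percentile was 63.0 and 60.6 (mean 61.8 ± 1.67, SD, n = 2), and 12.7% and 10.4% were in the top signal decile of their library. The percentage of strict peaks that were broad was lowest in the lowest signal decile (0.156% and 0.126%) and highest in the seventh (1.64% and 1.86%), and in the top decile it was 1.29% and 1.01%. Among promoter peaks alone the highest share was 4.81% in the seventh decile of replicate 1 and 5.40% in the sixth of replicate 2, and the top decile had 1.33% and 1.21%. Promoter members, at 63.4 and 61.0, were below the median percentile of all promoter peaks, 73.9 and 69.8. Distal members, at 61.1 and 58.9, were above that of all distal peaks, 41.9 and 43.6. Within the members, wider peaks were not stronger (rho of width and signal -0.17 and -0.09 over sites). Members of at least 600 bases had a median signal of 1.28 and 1.03.

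**Figure D3:**
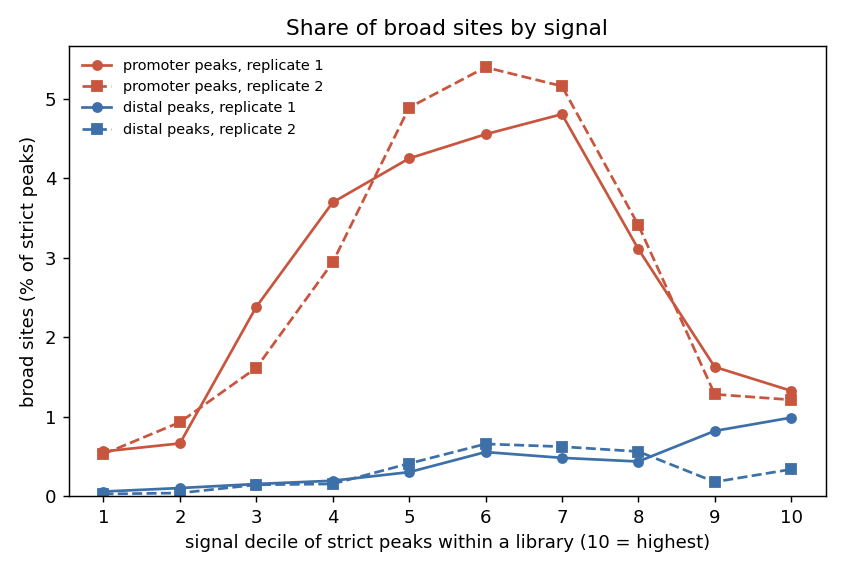
Percentage of strict promoter peaks (red) and distal peaks (blue) that were broad, by decile of deposited signal within a library, 10 being the highest; circles and solid lines are replicate 1, squares and dashed lines replicate 2. The promoter curves rise to 4.81% and 5.40% in the middle deciles and fall to 1.33% and 1.21% in the highest.

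The DNA under broad sites was rich in CpG. In a window of 300 bases at the peak's centre the observed over expected CpG ratio had a median of 0.792 and 0.791 (mean 0.792 ± 7.02e-05, SD, n = 2), against 0.314 and 0.304 for all strict peaks. Strict peaks from 380 to under 400 bases wide had 0.639 and 0.634. Members of the 2 libraries overlap by rule, so this SD does not measure how well the libraries agree. With all wide peaks of 1 library the median ratio was 0.7575 (replicate 1) and 0.6823 (replicate 2). The ratio was over 0.6 in 72.9% and 73.3% of members and in 25.5% and 23.4% of all. The gap was present in both classes. Broad promoter peaks had a median ratio of 0.844 and 0.842 against 0.735 and 0.724 for all promoter peaks, and broad distal peaks 0.396 and 0.388 against 0.237 and 0.235 for all distal peaks. The median GC content of members was 69.0% and 68.7%, against 54.0% and 52.3%. Soft-masked repeat sequence made up 6.29% and 6.43% of the windows, against 8.88% and 9.92%. Among promoter peaks with a ratio over 0.6, broad ones still had the lower median signal percentile, 63.1 and 61.0 against 83.9 and 82.3.

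Footprints were more numerous in broad sites but more thinly spread. A member held a median of 5 and 6 footprints, against 2 and 3 over all strict peaks. Per 100 bases there were 0.980 and 1.10 (mean 1.04 ± 0.0825, SD, n = 2), against 1.34 and 1.45, and 12.5% and 13.1% of bases were in footprints, against 19.8% and 21.9%. Strict peaks from 380 to under 400 bases wide had 1.06 and 1.21 per 100 bases, so the thin spread was shared by peaks nearly as wide. Footprints per 100 bases numbered 0.923 and 1.05 in broad promoter peaks against 1.31 and 1.42 in all promoter peaks, and 1.20 and 1.27 in broad distal peaks against 1.36 and 1.47 in all distal peaks. The median length was 10 bases, against 11. Of the members' footprints, 59.3% and 51.8% overlapped a footprint of the other library, against 64.9% and 55.6% over all strict peaks. The count went with signal: from the weakest to the strongest of 4 equal classes of members by signal, footprints per 100 bases rose from 0.480 to 1.72 in replicate 1 and from 0.635 to 1.78 in replicate 2. The part of depth in these counts was not tested.

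Along a broad peak the footprints were not concentrated at the midpoint. In promoter members 12.5% and 14.1% of the bases up to 60 from the midpoint were in footprints, and 12.9% and 14.0% of the bases 100 to 200 from it. In distal members the values were 14.9% and 14.3%, then 16.0% and 16.4%. In strict peaks 140 to 200 bases wide the inner part was at 26.6% and 31.6%, and the bases 100 to 200 from the midpoint, which lie outside those peaks, at 1.67% and 1.70%.

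**Figure D4:**
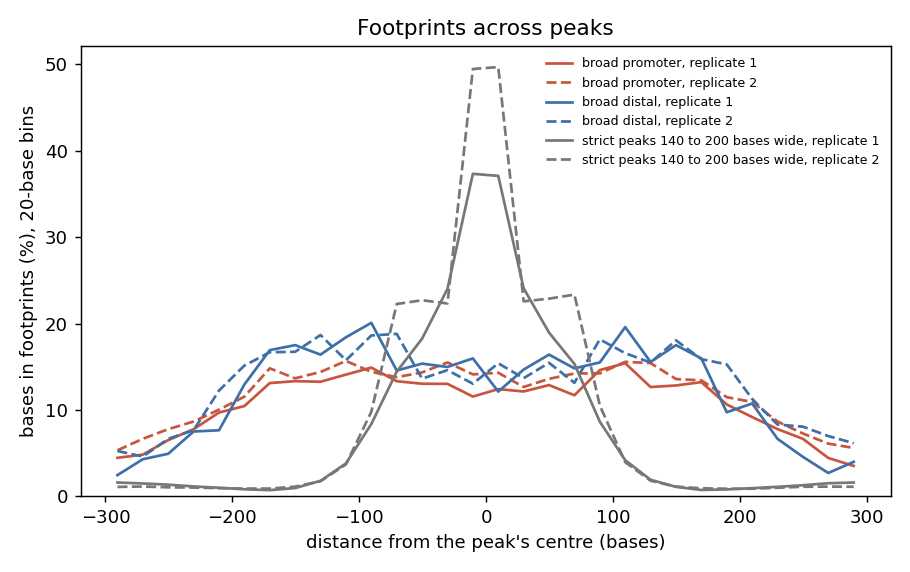
Percentage of bases in footprints, in bins of 20 bases, by distance from the peak's midpoint, for broad promoter peaks (red), broad distal peaks (blue) and strict peaks 140 to 200 bases wide (grey); solid lines are replicate 1, dashed lines replicate 2. The grey curves peak at the midpoint, whereas the broad curves are about level within 180 bases of it (12.5% and 14.1% in the inner part of promoter members) and fall beyond, to 4.45% and 5.32% in the leftmost bin of promoter members.

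No footprint at all was called in 160 members of replicate 1 (19.2%) and 104 of replicate 2 (12.1%), against 10.4% and 9.68% of all strict peaks. This gap did not hold within both position classes. Among promoter members the share was 22.4% and 14.5% against 15.7% and 15.2% of all promoter peaks, so lower in replicate 2, and among distal members 7.69% and 3.72% against 7.83% and 7.25%, lower in both. At 70 sites neither library had one. Of these, 66 were promoter sites and 55 lay downstream of a coding start. The widest were at Socs7 (a suppressor of cytokine signalling) and Cpeb2 (a regulator of translation). Others were at Chd7 (a chromatin remodeller), Ier2 (an immediate early gene), Pcbp1 (an RNA-binding protein) and Id4 (an inhibitor of bHLH factors). The Socs7 site began 70 bases downstream of the start and was 860 and 1040 bases wide, with a signal of 1.23 and 0.858. In the weakest of the 4 signal classes, 88 and 68 peaks had no footprint, and in the strongest 0 and 1.

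Of the motifs searched, the GC box differed most between broad and all strict peaks. Both strands of the window of 300 bases were searched for 22 consensus motifs, and a match is only a match of letters. GGGCGG was present in 66.4% and 63.1% of members, against 28.2% and 24.7% of all strict peaks. Strict peaks over 300 bases wide but under the width limit had it in 53.4% and 44.1%. Among all wide peaks of 1 library the share was 60.7% (replicate 1) and 50.3% (replicate 2). A raised share was therefore not particular to members, although theirs was the highest of these. At promoters the mean share was 73.8% ± 2.20 against 57.3% ± 2.35 (SD, n = 2), and at distal sites 34.6% and 30.9% against 13.3% and 11.2%. Among promoter peaks with a CpG ratio over 0.6 the gap was small, 78.5% and 75.6% against 73.4% and 71.8%. Most other promoter motifs were less frequent in the windows of broad than of all promoter peaks. The window of 300 bases is shorter than any broad peak, so matches toward the ends of broad peaks were not counted. The NF-Y core CCAAT was in 20.2% and 18.7% against 30.1% and 30.7%. The ETS motif CCGGAA was in 16.3% and 14.5% against 20.7% and 20.2%, and the NRF1 motif in 2.76% and 3.29% against 6.39% and 6.34%. The AP-1 motif TGANTCA was in 2.91% and 2.99% against 5.10% and 5.23%. These gaps exceeded the difference between the libraries, which the rule keeps small because their members overlap. The lower ETS, NRF1 and NF-Y shares held among promoter peaks with a CpG ratio over 0.6. For NF-Y they were 17.5% and 16.9% against 28.8% and 29.2%, a wider gap than that of the GC box among the same peaks.

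Apart from the GC box, distal broad sites were compared with all distal peaks for motifs of muscle factors and of CTCF in the same windows. The E-box was in 34.6% and 35.1% against 34.3% and 29.7%, the TEAD motif GGAATG in 19.2% and 20.2% against 18.8% and 18.4%, and the motif of MEF2, a partner of the myogenic factors, in 5.49% and 4.79% against 3.76% and 4.12%. With 182 and 188 distal members the TEAD and MEF2 gaps are of a few sites; the E-box gap was smaller in replicate 1 than in replicate 2, and the share in all distal peaks itself differed between the libraries. The core motif of CTCF, the insulator protein, was in 2.20% and 1.06% of distal members against 7.26% and 8.75% of all distal peaks. Matches to the GC box were wholly inside a footprint of the same library in 21.1% and 25.7% of cases in broad promoter windows (1145 and 1131 matches), against 33.0% and 39.2% in all promoter windows. For NRF1 the values were 71.4% and 67.9% (21 and 28 matches), against 77.0% and 75.1%. For the E-box at distal members they were 12.7% and 11.5% (79 and 78 matches), against 14.6% and 16.4%.

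**Figure D5:**
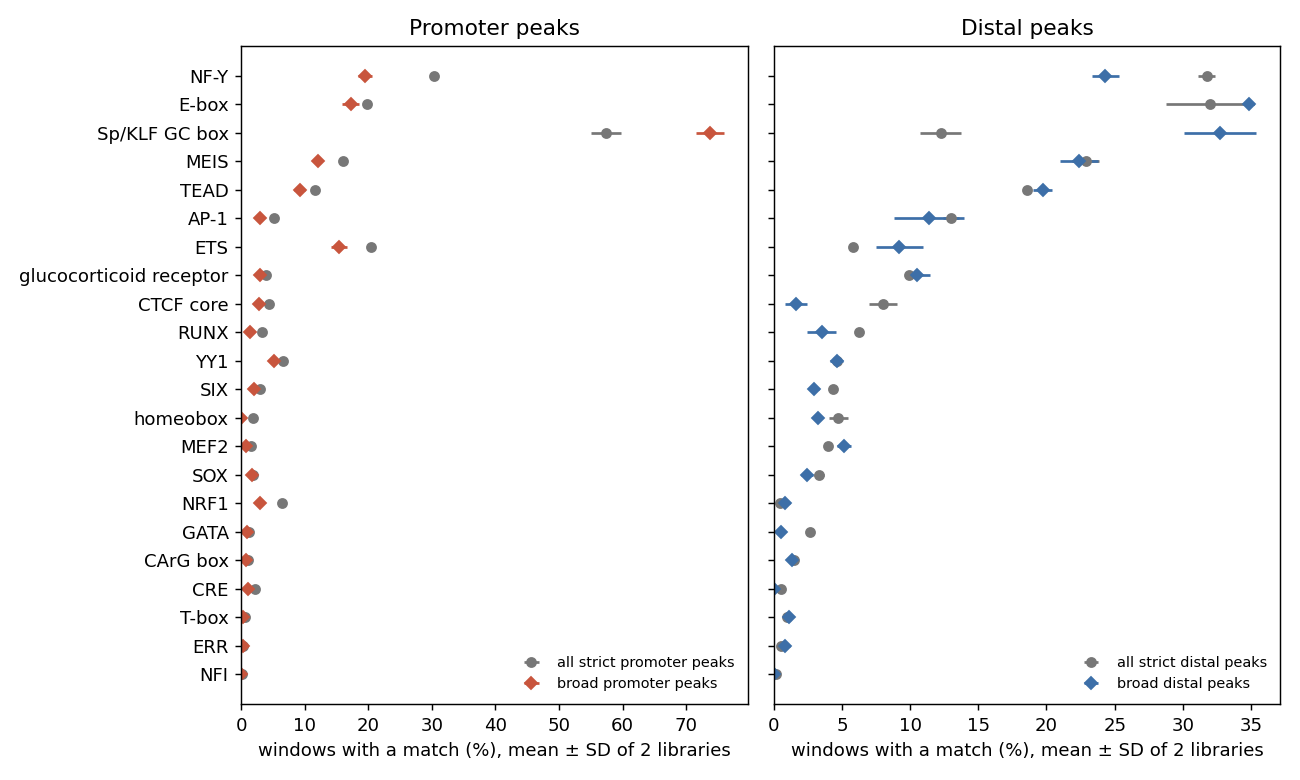
Percentage of 300-base windows with at least 1 match to each of 22 motifs, in broad promoter peaks (left, red) and broad distal peaks (right, blue), with all strict peaks of the same class in grey; points are means and bars the SD of 2 libraries. The GC box lies to the right of grey in both panels, and NF-Y, at 19.5% against 30.4% in promoters, to the left.

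The widest site by the mean of both libraries was at Rai1 (a chromatin-associated regulator), 880 and 1140 bases wide and 248 bases downstream of the start on chr11:60105261-60106400, with a signal of 2.17 and 1.35. Mdga1 (a cell-surface protein of the nervous system) followed with 560 and 1440 bases and 9 and 23 footprints. Bnc2 (a zinc finger protein), with 580 and 1300 bases, had 11 and 22 footprints, the highest mean of any site. Both were far wider in replicate 2 than in replicate 1. The others of the 10 widest were at Socs7, an intron of the noncoding gene Lncppara, Csf2ra, Mab21l1, Ttc28, Vps54 and Zbtb10. Of these, Vps54 (a protein of retrograde transport) was nearly equal in the libraries, with 840 and 860 bases and 10 and 14 footprints. The 10 sites with most footprints also included Wipi1 (13 and 18), Prkd3 (a kinase, 12 and 19), Rora (a nuclear receptor of the clock, 15 and 16), Gsk3b (the kinase that inhibits glycogen synthase, 10 and 19), Trib1, Baiap2l1, Smarca2 and Camta1. Their signals ranged from that of Rora, 1.91 and 0.968, to that of Wipi1, 19.5 and 7.52, so many footprints were also found at sites of modest signal.

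The strongest site was not a promoter. It lay on chr15:99735661-99736080, over an exon with untranslated sequence of Cers5 (a ceramide synthase), and 10043 bases from the nearest coding start, that of Cox14. Its signal was 32.5 and 30.6, its width 400 and 420 bases, and its CpG ratio 0.0593, the value of a CpG-poor element. It held 5 and 1 footprints. The other 9 of the 10 strongest were promoter sites, at Add3 (24.6 and 10.8), P4hb (protein disulphide isomerase, 24.9 and 9.95), Ep400, Hdgfl2, Mxd4, Nfya (a subunit of NF-Y), Camta1, Abtb1 and Setd3 (the histidine methyltransferase of actin). In these 9 the ratio of replicate 1 to replicate 2 was 1.03 to 1.74 times the median ratio over sites, and at the Cers5 site it was 0.653 times that.

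Among distal sites, 173 in all, 44 lay within 5 kb of a coding start, 118 within 50 kb and 55 beyond that. A CpG ratio over 0.6 was found at 24 of the 44 near sites and at 23 of the 129 others. The widest distal site, in the Lncppara intron 64584 bases from Ppara (a receptor of fatty acid metabolism), was 532 and 1300 bases wide with a signal of 2.95 and 2.04. The site near Tln2 was 940 and 720 bases wide, with 9 footprints in each library. Sema6c, Ebf3, Smarca2, Adarb1, Kdm6b and Qk were also among the 10 widest.

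At gene level, 601 of 21911 protein-coding genes (2.74%) had a broad site within 1 kb of a start. They were 4.45% of the 13514 genes with a promoter peak in both libraries. A distal broad site lay within 50 kb of a start of 250 genes (1.14%). In 20 gene lists with 369 members, 26 members had a broad promoter site, in 12 of the lists; the lists are short and a single gene moves a share by several points, so no list is set against the background.

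Among myogenic regulators 3 of 22 had one, Eya4, Mef2a and Sox6. Mef2a, a partner of the myogenic bHLH factors, had a signal of 6.53 and 3.54 with 10 and 11 footprints, 203 bases upstream of its start. Sox6, a repressor of slow fibre genes, had 2.61 and 1.20 with 12 and 8 footprints. Eya4, a transcriptional cofactor, had 0.803 and 0.495 with 2 and 1. The sites at Mef2a and Sox6 were thus footprinted and that at Eya4 was weak in both libraries. No broad promoter site was found at Myod1, Myf5, Myf6 or Myog.

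Of 39 contractile and Z-disc genes 3 had one, Mylpf, Tpm2 and Tpm3. Mylpf (the fast regulatory light chain) had 8.65 and 2.48 at a far upstream start of its annotation that also lies within 1 kb of a start of Tbc1d10b, so the site may belong to either gene. A second, distal site 3353 bases from a Mylpf start had 2.46 and 1.78. Tpm2 (tropomyosin beta) had 4.25 and 1.46, 446 bases upstream, and Tpm3 (slow tropomyosin alpha) 1.74 and 1.20, 326 bases downstream. Distal sites lay 28261 bases from Actn2 (1.11 and 0.876) and 49043 bases from Tnnt3 (3.63 and 1.81). The 18 genes of calcium release and reuptake and the 24 of oxidative metabolism had no broad promoter site. At the share of 2.74% over all coding genes, lists of this size can hold none. Of 18 glycogen and glycolysis genes, Pkm had 11.6 and 5.82 with 10 footprints in each library, and Ldha (lactate dehydrogenase A) had 2.06 and 1.09 with 5 and 6.

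Of 20 AP-1 and immediate early genes 4 had a broad promoter site. Klf9 (a KLF factor induced by hormones) had 12.1 and 4.97 with 9 and 13 footprints over its start. Ier2 had 1.05 and 0.835 with none, Jun 1.72 and 1.27 with 0 and 1, and Myc 0.680 and 0.739 with 0 and 1. The latter 3 all lay downstream of the start, by 172, 382 and 79 bases. The distal site near Fos had 15.5 and 6.496 with 11 and 9 footprints. Of 15 glucocorticoid response and atrophy genes 4 had one: Per1, also in the list of 12 clock genes, had 18.9 and 6.26, Mt2 (a metallothionein) 2.93 and 1.28, and Foxo1 (a driver of muscle atrophy genes) 2.02 and 1.12, beside Nr3c1. Distal sites lay 30174 bases from Ddit4 (3.97 and 1.51) and 4601 bases from Klf15 (2.82 and 1.51).

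Of 28 signalling genes 3 had one, Fst, Hes1 and Smad7. Fst (follistatin, an inhibitor of myostatin) had a pair of adjoining sites with 0.975 and 0.596, and 1.16 and 0.812. Hes1 (the effector of Notch signalling) had 9.19 and 4.54 with 9 and 13 footprints, and a distal neighbour with 2.22 and 1.80. Of 28 homeobox, T-box and limb patterning genes, Lbx1 had 1.38 and 0.826 and Meis1 1.40 and 1.00. For other cell types, sites were at Fbn1 and Tcf7l2 of 20 fibroblast and matrix genes, Mcam of 14 pericyte and smooth muscle genes and Pparg of 11 adipocyte genes. None was found at the promoters of 17 endothelial, 12 Schwann cell, 15 leukocyte, 12 hepatocyte, 12 keratinocyte and 12 neuronal genes. In that order 12, 8, 2, 1, 4 and 6 of these genes were open in both libraries. With such a site at 2.74% of all coding genes, lists this short can hold none, so these absences say nothing about cell types.

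Some genes carried several broad sites. A start of 103 genes had at least 2 within 50 kb, and Chd9, Gas1, Prkag2 and Trib1 had 3 each. At Gas1 (a cell-surface protein of hedgehog signalling) the 3 sites lay within chr13:60175610-60177860 and differed in footprints. The site over the start had 14 and 11, and those downstream had 0 and 1, and none in either library. In all, 35 pairs of sites were within 10 kb of each other and 30 within 2 kb, among them pairs at Sox9, Sox11, Fst, Hes1 and Lbx1. The pair at Sox9 (a factor of cartilage and tendon progenitors) flanked the start, 364 bases upstream and 377 downstream.

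The libraries differed most at an intergenic site 22330 bases from the nearest coding start, that of Teddm2. Its signal was 4.44 and 0.849, a ratio 3.21 times the median ratio. Next were a promoter site of the noncoding gene Mir22hg, whose nearest coding start is that of Tlcd2 (13.3 and 3.10, 2.63 times), and one at Hspb8, a small heat shock protein of muscle (9.45 and 2.34, 2.47 times). The sites at Mgat1 and Sypl2 followed. On the other side Mab21l1 had 0.842 and 1.20, 0.43 of the median ratio, and was 407 and 1360 bases wide, and Cmtm4, Ptpa, Ago4 and Cadm1 were at 0.455 to 0.487. With 1 library on each side, no error can be given for a ratio.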

How the data were processed

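The peaks, footprints and per-base FDR values deposited for 2 DNase-seq libraries on mm10 served unchanged. Signal is the value per peak that the authors deposited; its scaling is unknown, as is the depth, so signal was used within a library or as a ratio relative to the median ratio. The FDR p-values (threshold 0.01 for footprints, under 0.05 for the tracks) are the authors', as deposited. Each library has its own peaks. For the aligner and callers, names were not given in the sources used here. Each library has 2 peak lists, and the one with fewer rows (strict) was used.

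Members, gene lists, motifs and alternatives were chosen with earlier results of these data known. Overlaps within a list, position classes, neighbouring peaks and motifs inside footprints were added after the values were seen. Percentiles rank signal among all strict peaks of a library. Footprints were counted when wholly inside a peak. Where a library had several peaks in a site, the widest width, the highest signal and the number of distinct footprints are given. Starts came from GENCODE M21 (basic set), in the order promoter (1 kb), exon, intron, intergenic; sequence came from RefSeq GRCm38.p6, whose chromosome lengths match mm10. The named sites are the 10 widest, strongest, most footprinted and widest distal, the 5 extremes of the ratio on each side, up to 5 broad members of each gene list, and genes with several sites; a few others were named after their values were seen, and some sites are not reported here. No test was run, since 1 group of 2 libraries allows none and regions are not replicates. Python 3.11.15, numpy 2.4.6, pandas 2.3.3 and pysam 0.24.0 were used, and the interval and motif functions were tested on simulated data. The alternatives changed the minimum width, peak list, overlap, promoter window, start set, percentile base, footprint count, motif window and library.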

Additional observations from a re-analysis of the deposited data

How the results depend on the processing

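The number of sites, 796, was 2859 at a minimum width of 300 bases, 222 at 500 bases and 1353 with the permissive lists; with 1 library alone it was 1838 to 3683. The promoter share, 78.1%, was 71.3% at 300 bases, 81.7% at 500 bases, 69.7% with the permissive lists and 66.2% to 70.7% with 1 library. Of all permissive peaks 24.7% were at promoters, against 31.5% of all strict peaks. The share of members was 57.7% within 250 bases of a start, 82.7% within 2500 and 72.9% with coding starts only. Over all strict peaks these values were 21.6%, 38.8% and 27.6%. The median percentile, 61.8, was 66.0 at 300 bases, 68.3 with the permissive lists, 57.8 with 1 library and 46.4 among peaks of the same class. Footprints per 100 bases, 1.04, were 1.18 at 300 bases, 0.875 with the permissive lists and 0.892 to 1.09 with 1 library. All permissive peaks had 1.14, against 1.40 in all strict peaks. The CpG ratio, 0.792, was 0.759 at 300 bases, 0.788 at 500 bases, 0.746 with the permissive lists, 0.787 with a reciprocal overlap of 50% and 0.682 to 0.757 with 1 library. The GC box share, 64.8%, was 42.6% in a window of 150 bases, 73.8% at promoter sites, 32.7% at distal sites and 50.3% to 60.7% with 1 library. Without the members that overlapped another strict peak of their own library, an alternative chosen after seeing the data, there were 692 sites, the promoter share was 77.8% and the CpG ratio 0.804. The causes of these shifts were not tested, except that a lower width limit and a single library admit more sites by construction. No paired analysis was possible because there is 1 group and no result comes from a test.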
